A study of Rattus norvegicus with 18 samples.

Results

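Heterotrimeric G proteins and the regulators of G protein signalling (RGS) were followed in the prefrontal cortex (PFC) of Sprague Dawley rat pups at P14. The members were 43 genes picked by symbol, namely 13 alpha subunits, 5 beta subunits, 11 gamma subunits and 14 RGS proteins, out of 32623 genes listed for each pup. A row was found for 42 of the 43 symbols, and no row carried the symbol *Rgs11*. *Gnas* had 2 rows, so the members filled 43 rows, of which 42 passed the filter on low counts along with 15661 other genes. RNA-seq was run on 18 pups, 6 in each of 3 groups. SAL pups came from dams given saline. PNO (postnatal oxy) pups met oxycodone (oxy) through the milk of dams gavaged with 15 mg/kg/day from birth of the litter until weaning. IUO (in utero oxy) pups came from dams started on 10 mg/kg/day for 5 days, raised by 0.5 mg/kg/day over 10 days to 15 mg/kg/day, then mated and treated through pregnancy and nursing. IUO therefore differs from PNO in both the period and the total of exposure, IUO pups had been exposed after birth as well, and the dams of the pups are not given, so littermates cannot be recognised.

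A heterotrimeric G protein couples a cell-surface receptor to enzymes and channels. An activated receptor makes the alpha subunit exchange GDP for GTP, alpha and the beta-gamma dimer part, and both act on effectors until alpha hydrolyses its GTP. RGS proteins speed that hydrolysis and so shorten the signal. Opioid receptors, on which oxy acts, couple to the inhibitory Gi/o alpha subunits, which lower cyclic AMP, while their beta-gamma dimers open potassium channels and restrain calcium channels.

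The libraries held between 18381819 and 26084780 expected counts (median 22726306), and values between pups are given below as CPM (counts per 1e6) after TMM scaling. The 7 markers of cortical excitatory neurons were all above the filter, and their summed level ran from 1723 to 4513 CPM in SAL, with medians of 3596 in PNO and 3212 in IUO. Markers of other cells varied between pups. The sum of 12 striatal markers spanned 383.9 to 2098 CPM within SAL alone, with medians of 548.9, 559.8 and 980.1 CPM in SAL, PNO and IUO. The sum of 9 myelin genes had medians of 6389, 10414 and 3028 CPM, and all 9 were lower in IUO than in PNO at an unadjusted p under 0.05. Of the 12 striatal markers 0 were called in that comparison, where 15.3% of all genes were. SAL replicate 6 stood apart, with 745.0 CPM over 6 olfactory bulb markers against at most 122.7 CPM in any other pup. Changes that rest on it are given with and without it. In such bulk samples, fewer cells of a type and less RNA per cell cannot be told apart.

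In SAL, levels per transcript length (TPM, transcripts per 1e6) put the members in a steep order within each class. Alpha subunits summed to 1861 ± 121.5 TPM (SD, n = 6), beta subunits to 1170 ± 203.3, gamma subunits to 1220 ± 55.3 and RGS proteins to 706.6 ± 98.3. The stimulatory Gs/olf alpha subunits, which raise cyclic AMP, held 51.1 ± 7.65% of the alpha total and the Gi/o subunits 36.2 ± 5.19%. The G12/13 subunits held 7.70 ± 0.651%, and the Gq/11 subunits, which act on phospholipase C beta, 4.98 ± 2.16%.

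Among alpha subunits *Gnas* (ENSRNOG00000047374), the ubiquitous Gs subunit, stood highest in SAL with 833.8 ± 97.7 TPM. Its second row (ENSRNOG00000025889) had 30.7 ± 12.5 TPM, and both rows held fractional counts in all 18 pups, so the split of reads between them is uncertain. *Gnao1*, the Go subunit abundant in neurons, followed with 304.2 ± 67.4 TPM and *Gnai2* with 180.8 ± 25.8 TPM, with no overlap of the SAL pups between *Gnas* and *Gnao1* or between *Gnao1* and *Gnai2*. From *Gnai2* down to *Gna13*, through *Gna12*, *Gnai1*, *Gnal*, *Gnaz*, *Gnaq*, *Gna11*, *Gnai3* and the second *Gnas* row, the SAL ranges of each pair of neighbours overlapped. In that stretch *Gna12*, the highest G12/13 subunit, had 129.1 ± 15.4 TPM and *Gnaq*, the highest Gq/11 subunit by mean, 48.1 ± 33.8 TPM. The *Gnaq* mean leans on SAL replicate 6, at 76.9 CPM against 18.2 to 39.6 CPM in the other SAL pups. *Gna11* was close to it, at 44.1 ± 15.1 TPM. *Gna15* and *Gna14*, Gq/11 subunits with a narrow tissue range, were lowest at 1.62 ± 0.115 and 0.885 ± 0.274 TPM. The spread between SAL pups was very unequal: *Gnai3* had 36.7 ± 5.77 TPM, while *Gnal*, the Golf subunit that couples dopamine and adenosine receptors in the striatum, had 79.6 ± 61.1 TPM.

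*Gnb1* and *Gnb2* made up most of the beta pool, with 580.8 ± 162.5 and 460.4 ± 41.4 TPM in SAL and overlapping pups. *Gnb5*, the beta subunit that pairs with RGS proteins of the R7 family rather than with gamma, had 68.7 ± 17.1 TPM, and *Gnb4* 56.5 ± 20.3. *Gnb3*, known from cone photoreceptors, had 3.21 ± 1.85 TPM. The neuronal gamma subunit *Gng3* led its class with 437.9 ± 73.4 TPM, above every SAL value of *Gng2* (203.8 ± 25.1) and *Gng10* (178.6 ± 17.6). *Gng7*, the usual gamma partner of Golf, was at 135.6 ± 92.8 TPM and *Gng4* at 105.9 ± 57.4, both with wide spread. *Gng13*, known from taste cells and retinal bipolar cells, was at 95.3 ± 15.2 TPM, *Gng12* at 35.1 ± 4.10 and *Gng11* at 19.3 ± 4.21. *Gng8* and the cone subunit *Gngt2* were the lowest tested, at 5.52 ± 0.822 and 2.52 ± 0.769 TPM. *Gng5* was listed at 0 in 17 pups and at 1.93 CPM in IUO replicate 1, and its level is not read further (exact permutation test between any pair of groups, two-sided p = 1.0).

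Of the RGS proteins, *Rgs4*, a regulator of Gi/o and Gq in cortical neurons, was highest with 243.5 ± 72.2 TPM in SAL, followed with no overlap by *Rgs10* at 118.3 ± 14.2. The R4 family (*Rgs2*, *Rgs3*, *Rgs4*, *Rgs8*, *Rgs16*) held 54.3 ± 4.41% of the RGS total and the R12 family (*Rgs10*, *Rgs12*, *Rgs14*) 24.8 ± 3.64%. The R7 family, here *Rgs6* and *Rgs7*, held 11.7 ± 1.63% and the RZ family (*Rgs17*, *Rgs19*, *Rgs20*) 9.11 ± 1.08%. These shares cover the listed members only. *Rgs9*, also of the R7 family, served as a striatal marker and ran from 5.73 to 116.1 CPM in SAL. Among the listed members *Rgs7* led the R7 family at 56.9 ± 8.67 TPM and *Rgs19* the RZ family at 33.1 ± 1.39. From *Rgs10* to the lowest, *Rgs16* at 8.0 ± 2.18 TPM, each neighbour in the order overlapped the next.

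**Figure D1:**
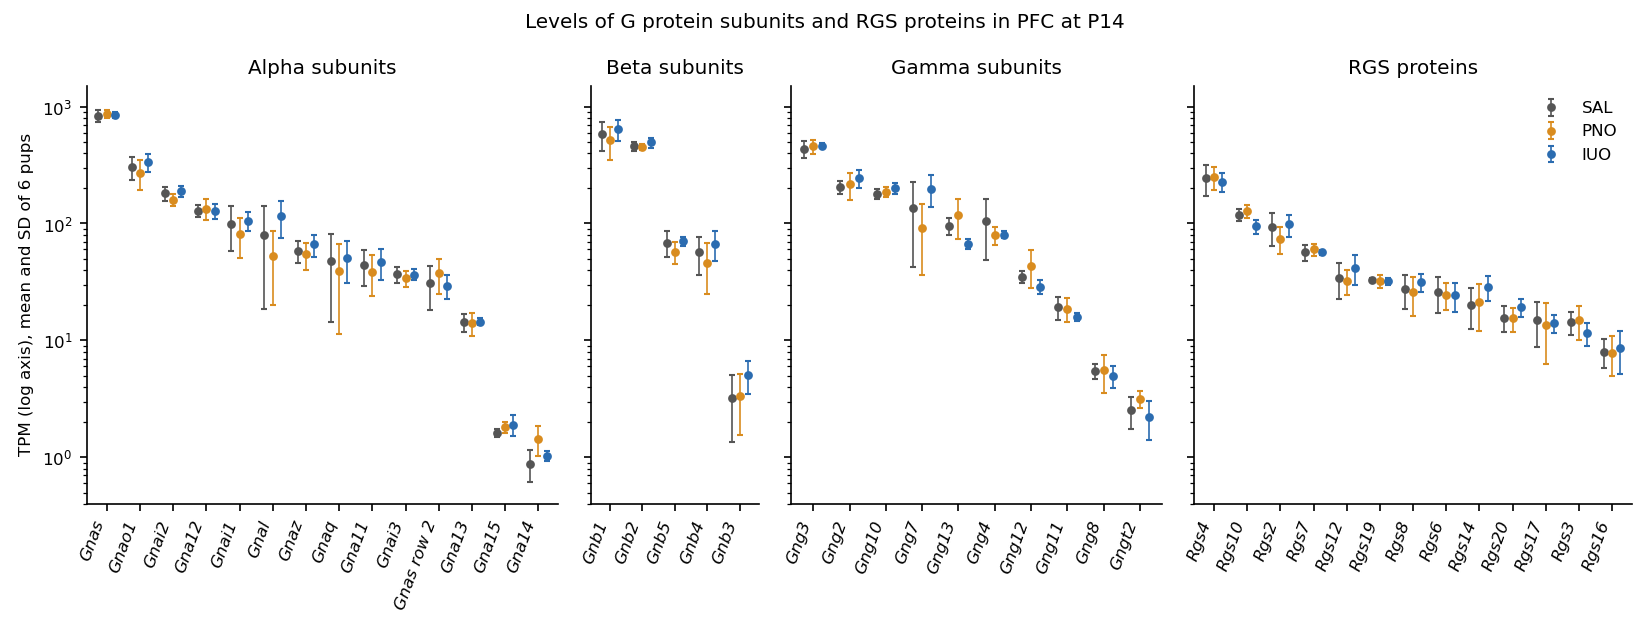
TPM (log axis) of the 42 rows past the filter by class, ordered by mean level, with the mean and SD of the 6 pups of SAL, PNO and IUO as points and bars. The order within a class is set by gene far more than by group, and *Gnal*, *Gnaq* and *Gng7* have the longest bars among the abundant members.

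Whether oxy moved the members was asked in 3 comparisons, all from edgeR's quasi-likelihood test. PNO and IUO share the same 6 SAL pups, so the comparisons against SAL are not independent. No member passed an adjusted p of 0.05 (Benjamini-Hochberg over 15703 genes) in any of them. Over all genes, 0% passed in PNO against SAL, 0% in IUO against SAL and 0.0637% (10 genes) in IUO against PNO. At an unadjusted p under 0.05, 1 of 42 rows was called in PNO against SAL (2.38%, against 4.5% of all genes). In IUO against SAL it was 3 of 42 (7.14%, against 6.88% of all genes), and in IUO against PNO 8 of 42 (19.0%, against 15.3%). In the same order, DESeq2 called 0, 0 and 3 members at the adjusted threshold, against 0.00637%, 0.312% and 2.78% of all genes. At the unadjusted threshold it called 1, 3 and 10 members, against 5.07%, 7.58% and 16.4% of all genes. limma-voom with quality weights called 0, 0 and 8 members at the adjusted threshold, the last being 19.0% of them against 12.9% of all genes. Its unadjusted counts were 2, 13 and 22 (4.76%, 31.0% and 52.4%), against 6.69%, 17.3% and 34.0% of all genes. How the members' share compared with that of all genes thus differed between the fits, and these shares were not tested. The median log2 fold change over the members was 0.07, 0.07 and 0.02, against 0.00, -0.01 and 0.00 over all genes, and 26, 27 and 22 of 42 rows were on the higher side. The median size without sign was 0.14, 0.16 and 0.24, against 0.11, 0.10 and 0.15 over all genes. In CPM, 0 members separated the 6 pups of one group completely from those of another, while 0.108% of all genes did so in PNO against SAL, 0.745% in IUO against SAL and 1.66% in IUO against PNO.

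Single pups moved these small counts. In PNO against SAL the unadjusted count was 5 without SAL replicate 4 (8.18% of all genes), 3 without PNO replicate 1 (8.99%) or 5 (6.42%), and 2 without SAL replicate 5 (4.55%) or PNO replicate 2 (3.21%) or 3 (3.96%). In IUO against SAL it was 1 without IUO replicate 3 (5.14% of all genes) and 0 without IUO replicate 4 (5.57%) or 5 (5.21%). In IUO against PNO it was 14 without PNO replicate 1 (21.4% of all genes) and 5 without PNO replicate 4 (11.9%). Without PNO replicate 5, 2 members, *Gng13* and *Gng12*, also passed the adjusted threshold, as did 0.601% of all genes.

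**Figure D2:**
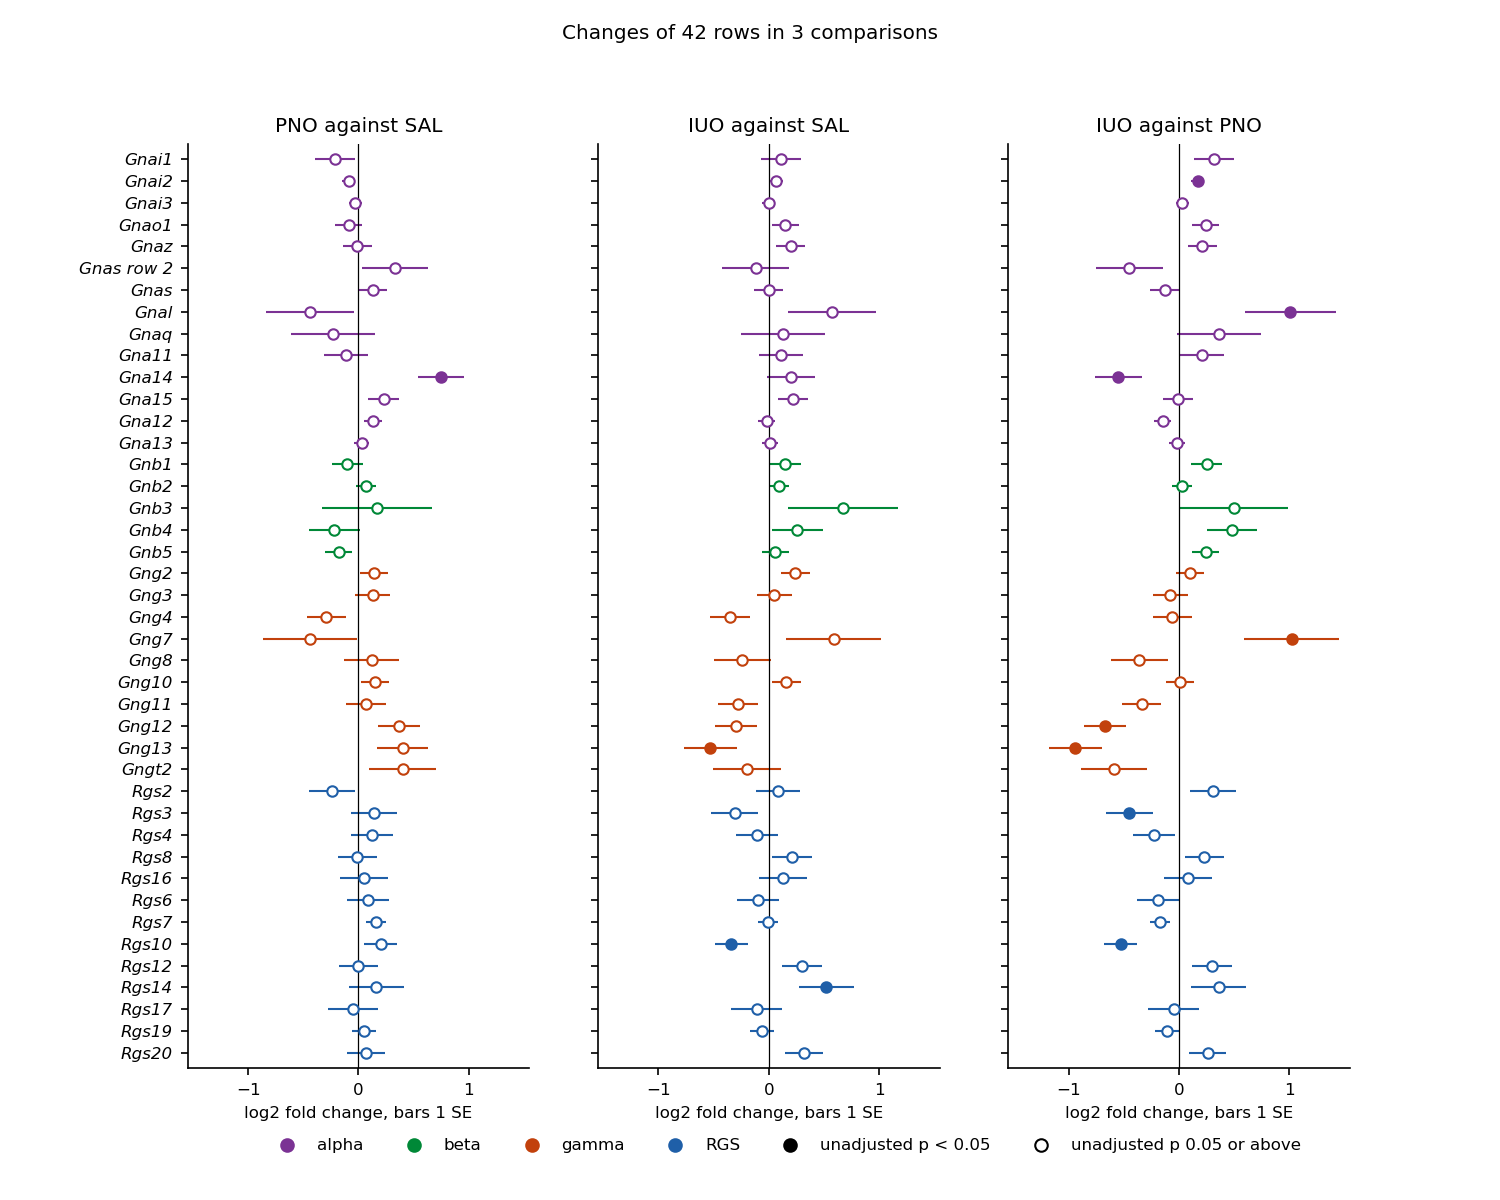
The log2 fold change of each of the 42 rows in the 3 comparisons, with bars of 1 SE, colour for class and filled points for an unadjusted p under 0.05. Filled points number 1, 3 and 8 from left to right, and the widest bars belong to *Gnb3*, *Gng7*, *Gnal* and *Gnaq*.

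In PNO pups, *Gna14* (ENSRNOG00000014840), an alpha subunit that activates phospholipase C beta, was the member furthest from SAL. It ran from 1.01 to 2.26 CPM in SAL (median 1.27), from 1.62 to 3.32 in PNO (median 2.58) and from 1.53 to 1.88 in IUO (median 1.70). All 6 PNO pups were above the SAL median, and the groups overlapped. Its log2 fold change was 0.75 ± 0.21 (SE), with an unadjusted p of 0.0026 and an adjusted p of 0.912, and the unadjusted p stayed under 0.05 in each of the 28 alternative fits. The next member by p was *Gng12* (ENSRNOG00000050231), a gamma subunit, at 10.2 to 18.1 CPM in SAL (median 13.6) and 10.3 to 24.0 in PNO (median 19.1). Here 4 of 6 PNO pups exceeded the SAL median, and the log2 fold change was 0.37 ± 0.19 (unadjusted p 0.0608, adjusted p 0.912). With the myelin marker score as a covariate it was 0.05. Without SAL replicate 6 the log2 fold changes of *Gna14* and *Gng12* were 0.67 and 0.29, with unadjusted p-values of 0.00792 and 0.143.

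The other rows lay between -0.44 and 0.40 in PNO against SAL. The 5 Gi/o alpha subunits were each lower in PNO, between -0.21 and -0.01 and with a median of -0.09, and 0 of them had an unadjusted p under 0.05. Of the 13 RGS rows 10 were higher and 3 lower, between -0.24 and 0.20, and 8 of 10 gamma rows were higher. *Gng4* was at -0.29 with SAL replicate 6 and at -0.04 without it. That pup alone had 338.7 CPM of *Gng4*, against 135.8 to 202.6 CPM in the other SAL pups, and whether its olfactory bulb markers bear on this value was not tested.

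In IUO pups against SAL, *Gng13* (ENSRNOG00000039350) had the smallest p. It ran from 11.7 to 21.9 CPM in SAL (median 16.3) and from 10.6 to 13.5 in IUO (median 11.2), and all 6 IUO pups were below the SAL median. The log2 fold change was -0.53 ± 0.24 (unadjusted p 0.0367, adjusted p 0.698). *Gng13* counts were fractional in all 18 pups, so part of its reads was shared with other rows of the table. *Rgs10* (ENSRNOG00000042592), a small RGS protein of the R12 family that is abundant in microglia and also made by neurons, ran from 40.4 to 75.3 CPM in SAL (median 55.2) and from 34.8 to 54.9 in IUO (median 43.5). Again all 6 IUO pups were below the SAL median, and the log2 fold change was -0.34 ± 0.15 (unadjusted p 0.0415, adjusted p 0.705).

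*Rgs14* (ENSRNOG00000015616), which besides its RGS domain holds inactive Gi alpha through a GoLoco motif, went the other way. It ran from 26.5 to 57.7 CPM in SAL (median 29.7) and from 38.4 to 68.8 in IUO (median 46.0), with all 6 IUO pups above the SAL median. Its log2 fold change was 0.52 ± 0.25 (unadjusted p 0.0493, adjusted p 0.721), and 6 of 18 fits that left out a pup kept the unadjusted p under 0.05. With the striatal score as a covariate it was at 0.45 (unadjusted p 0.0707), and with the myelin score at 0.61 (unadjusted p 0.0384). Its unadjusted p was 0.0656 with no normalization factors and 0.0513 with a filter of 1 CPM in at least 6 pups. Without SAL replicate 6 the log2 fold changes of *Gng13*, *Rgs10* and *Rgs14* were -0.62, -0.42 and 0.48, with unadjusted p-values of 0.0186, 0.0108 and 0.0871. The unadjusted p of *Gng13* stayed under 0.05 in 11 of 18 fits that left out a pup and lay between 0.0546 and 0.0878 without SAL replicate 3, 4 or 5 or IUO replicate 1, 2, 4 or 5. That of *Rgs10* also stayed under it in 11 of 18 and lay between 0.0515 and 0.124 without SAL replicate 2, 3 or 4 or IUO replicate 3, 4, 5 or 6. With the myelin score as a covariate *Gng13* was at -0.38 (unadjusted p 0.149) and *Rgs10* at -0.23 (unadjusted p 0.157), and with the striatal score *Rgs10* was at -0.34 (unadjusted p 0.0574).

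By class, IUO pups were above SAL for 12 of 14 alpha rows and 5 of 5 beta rows, all with unadjusted p-values of 0.05 or more. The alpha rows had a median log2 fold change of 0.11 and the beta rows of 0.15. Gamma rows were lower in 6 of 10, with a median of -0.22, and RGS rows were split 6 to 7. The largest log2 fold changes, 0.67 for *Gnb3*, 0.59 for *Gng7* and 0.57 for *Gnal*, came with SEs of 0.50, 0.43 and 0.40. *Gng4* was at -0.35 with SAL replicate 6 and at -0.10 without it.

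The comparison of IUO with PNO set dosing of the dam from before mating through nursing against exposure through milk alone. It cannot separate exposure in utero from dosing before mating, total exposure or litter. It held 8 of the 42 rows at an unadjusted p under 0.05, in a comparison where 15.3% of all genes were called. *Gng13* again came first. It ran from 11.5 to 35.1 CPM in PNO (median 19.7) and from 10.6 to 13.5 in IUO, and all 6 IUO pups were below the PNO median. Its log2 fold change was -0.94 ± 0.24, a level in IUO of 0.523 times that in PNO (unadjusted p 0.000921, adjusted p 0.102). The adjusted p was 0.0122 with DESeq2 and 0.0144 with limma-voom, ranged up to 0.533 with the myelin score as a covariate, and lay between 0.0461 and 0.220 over the fits that left out a pup.

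*Gng12* ran from 10.3 to 24.0 CPM in PNO and from 9.91 to 14.4 in IUO (median 10.9), with all 6 IUO pups below the PNO median of 19.1. Its log2 fold change was -0.67 ± 0.19 (unadjusted p 0.00203, adjusted p 0.124). DESeq2 gave an adjusted p of 0.0298 and limma-voom 0.0135, and the range over the alternatives reached 0.918. *Rgs10* ran from 42.6 to 77.8 CPM in PNO (median 69.0) against 34.8 to 54.9 in IUO, with all 6 IUO pups below the PNO median. PNO replicate 1 was the only PNO pup inside the IUO range. The log2 fold change was -0.53 ± 0.15 (unadjusted p 0.0027, adjusted p 0.128), with an adjusted p of 0.0387 by DESeq2, 0.0067 by limma-voom and up to 0.598 over the alternatives. The sum of 8 microglial markers overlapped between PNO (231.0 to 276.0 CPM) and IUO (223.0 to 265.6 CPM). Of the 8, 1 (*Tmem119*) was lower in IUO at an unadjusted p under 0.05, where 15.3% of all genes were called.

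*Gng7* (ENSRNOG00000019857) and *Gnal* (ENSRNOG00000010440), which form the striatal Golf trimer with a beta subunit, were higher in IUO. *Gng7* ran from 97.9 to 386.4 CPM in PNO (median 127.3) and from 224.5 to 521.0 in IUO (median 320.3). *Gnal* ran from 21.7 to 66.7 CPM in PNO (median 31.2) and from 56.4 to 131.1 in IUO (median 70.5). For both genes all 6 IUO pups exceeded the PNO median, while the highest PNO pups lay inside the IUO range. The log2 fold changes were 1.02 ± 0.43 for *Gng7* (unadjusted p 0.0279, adjusted p 0.272) and 1.01 ± 0.41 for *Gnal* (unadjusted p 0.0229, adjusted p 0.253). SAL pups covered nearly the whole span of both genes, from 70.2 to 439.3 CPM for *Gng7* and from 22.8 to 120.5 for *Gnal*. limma-voom gave adjusted p-values of 0.0452 and 0.0466, DESeq2 0.248 and 0.139, and over the alternatives they reached 0.44 and 0.421. With the striatal marker score as a covariate the log2 fold changes were 0.61 (unadjusted p 0.00397, adjusted p 0.128) and 0.58 (unadjusted p 0.0145, adjusted p 0.193). Of the 18 fits that left out a pup, 12 kept the unadjusted p under 0.05 for *Gng7* and 15 for *Gnal*. It was 0.0521 to 0.0687 for *Gng7* without PNO replicate 2, 4, 5 or 6 or IUO replicate 1 or 2, and 0.0518 to 0.068 for *Gnal* without PNO replicate 4 or 5 or IUO replicate 2.

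The 3 other members under an unadjusted p of 0.05 were *Gna14*, *Gnai2* and *Rgs3*. *Gna14*, higher in PNO than in SAL, was lower in IUO than in PNO, at -0.55 ± 0.21 (unadjusted p 0.0183, adjusted p 0.234) with all 6 IUO pups below the PNO median, and its unadjusted p was 0.0516 without PNO replicate 2. *Gnai2* (ENSRNOG00000016592), a Gi subunit, ran from 201.9 to 242.2 CPM in PNO (median 223.8) and from 224.8 to 273.7 in IUO (median 246.9). Its log2 fold change of 0.17 ± 0.06 (unadjusted p 0.0155, adjusted p 0.222) was the least in size among those called, with an unadjusted p of 0.0512 without PNO replicate 5 and 0.0513 without IUO replicate 5. *Rgs3* (ENSRNOG00000024501), an RGS protein that also binds beta-gamma, ran from 24.2 to 47.0 CPM in PNO (median 29.8). In IUO 5 pups held 20.5 to 23.7 CPM and the remaining pup, replicate 6, 37.3 CPM. The log2 fold change was -0.45 ± 0.21 (unadjusted p 0.0447, adjusted p 0.315), and 8 of 18 fits that left out a pup kept the unadjusted p under 0.05. It was 0.0681 with no normalization factors. With the striatal score as a covariate *Rgs3* was at -0.37 (unadjusted p 0.108) and *Gna14* at -0.45 (unadjusted p 0.0586).

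**Figure D3:**
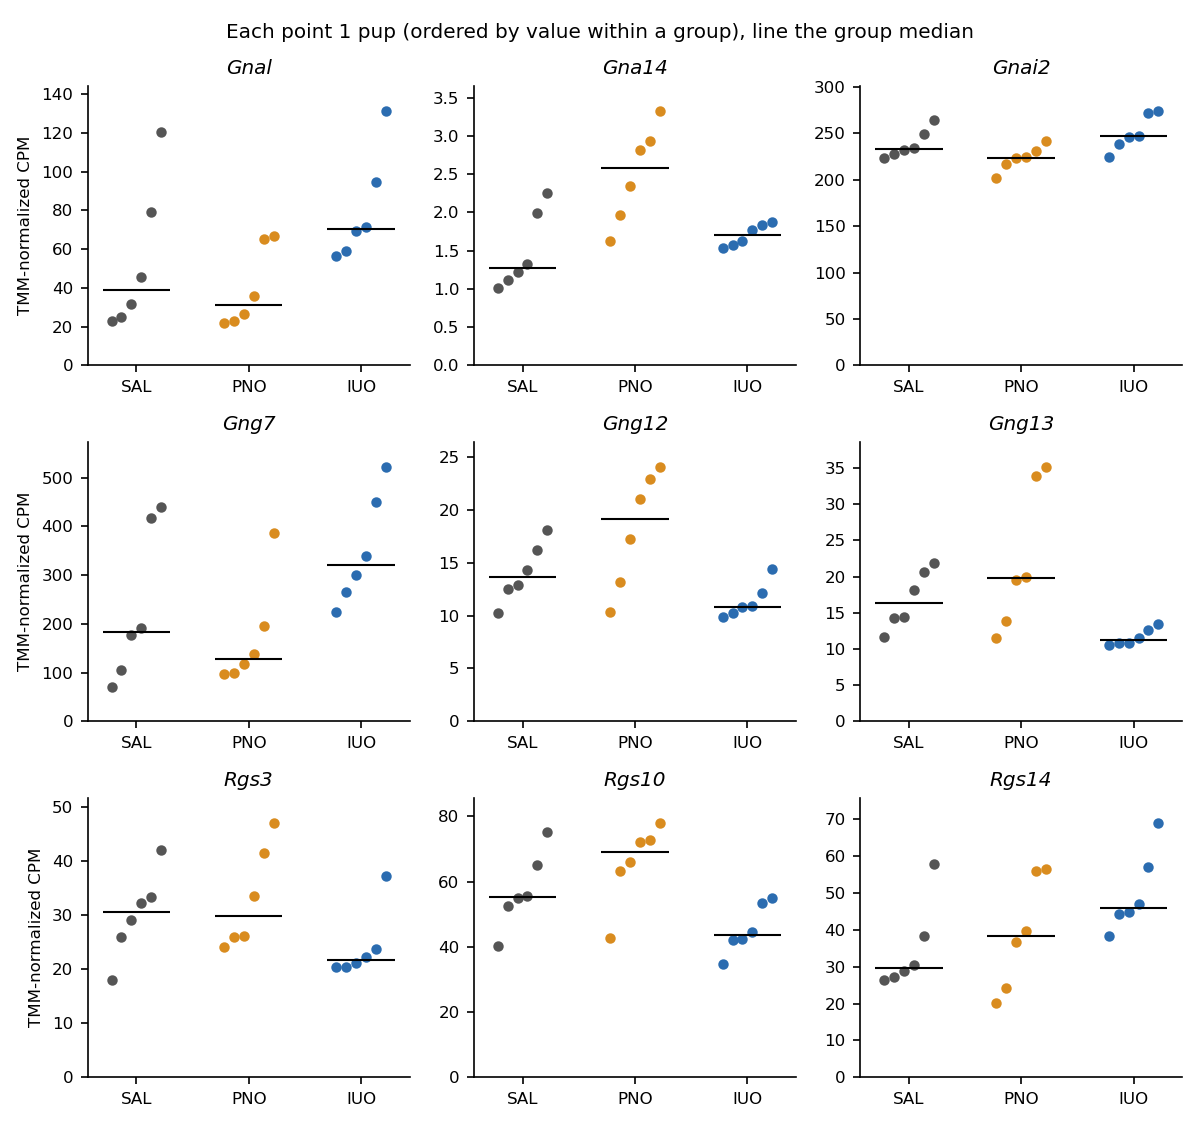
TMM-normalized CPM of the 9 members with an unadjusted p under 0.05 in at least 1 comparison, 1 point for each pup ordered by value and a line at each group's median, with axes from 0. IUO pups lie close together and low for *Gng12*, *Gng13* and *Rgs3* apart from 1 pup, while PNO pups spread widely for *Gng12* and *Gng13*.

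The 14 alpha rows in IUO against PNO were split 8 higher to 6 lower. All 5 Gi/o alpha rows were higher in IUO, from 0.03 to 0.32 with a median of 0.21, of which *Gnai2* alone was called. All 5 beta rows were higher, from 0.03 for *Gnb2* to 0.50 for *Gnb3* with a median of 0.25, and 0 were called, *Gnb4* (0.48 ± 0.23) and *Gnb5* (0.24 ± 0.12) having unadjusted p-values of 0.0506 and 0.052. Of 10 gamma rows 7 were lower, with a median of -0.21. The 13 RGS rows were split 6 higher to 7 lower, from -0.53 to 0.36. Both R7 rows were lower (*Rgs6* -0.19, *Rgs7* -0.17), whereas *Rgs12* and *Rgs14* of the R12 family were at 0.30 and 0.36 while *Rgs10* of the same family was at -0.53. *Gnas* was at -0.13 ± 0.13, and at -0.14 ± 0.13 with both its rows summed. Myelin genes were lower in IUO across their whole list, so the myelin score was set as a covariate. The log2 fold change of *Gng12* was then -0.08, of *Gng13* -0.64, of *Rgs10* -0.33, of *Gna14* -0.36 and of *Rgs3* -0.24, while *Gnal* was at 1.67, *Gng7* at 1.58 and *Gnai2* at 0.17. In that fit *Gnal* (unadjusted p 0.00326) and *Gng7* (unadjusted p 0.00777) kept an unadjusted p under 0.05. *Gnai2* (0.0527), *Gng13* (0.0502), *Rgs10* (0.0735), *Gna14* (0.198), *Rgs3* (0.38) and *Gng12* (0.522) did not. The myelin score ran from -0.86 to 1.77 in PNO and from -1.40 to 0.09 in IUO. The groups overlapped in it through PNO replicate 5 (-0.86) alone. Every other PNO pup, from 0.43 up, was above the highest IUO pup. Group and score are therefore hard to separate in that fit.

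How far the members moved with markers of cell types was then followed over the 18 pups, relating each of 42 rows to 4 marker scores, 168 relations in all. A score is the mean of z-scored log2 CPM over the markers of a list. The striatal score was related to 6 rows by r after adjustment over the 168, all positively. *Rgs20*, an RZ protein that acts on Gz, had a Pearson's r of 0.93 and a Spearman's rho of 0.89. *Gng7* had an r of 0.91 and a rho of 0.94, and *Gnal* an r of 0.87 and a rho of 0.89. For each of these 3 the permutation p was 1e-05 for r and for rho, the smallest that 100000 permutations can give, and the adjusted p was 0.00028 for r and 0.000336 for rho. Their r was 0.95, 0.88 and 0.81 once the pair of pups with the most extreme scores (SAL replicate 1 and IUO replicate 2) was left out. Inside each group, in the order SAL, PNO, IUO, the r of *Gng7* was 0.88, 0.99 and 0.97, that of *Gnal* 0.87, 0.87 and 0.95, and that of *Rgs20* 0.93, 0.94 and 0.96. *Rgs2*, *Rgs8* and *Gnb5* followed with an r of 0.79, 0.75 and 0.73, permutation p-values of 0.00021, 0.00047 and 0.00083 and adjusted values of 0.00441, 0.00877 and 0.0116. Their rho was 0.76, 0.83 and 0.76, with permutation p-values of 0.00048, 9e-05 and 0.00051 and adjusted values of 0.00779, 0.00216 and 0.00779. Their r was 0.79, 0.71 and 0.68 without the 2 farthest pups and at least 0.65 within each group.

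The myelin score was related to 5 rows by r. *Gng12* followed it most closely, with an r of 0.94 (permutation p 1e-05, adjusted 0.00028) and a rho of 0.96 (permutation p 1e-05, adjusted 0.000336). Its r was 0.93 without the pups of most extreme score (SAL replicate 6 and PNO replicate 1), and 0.90, 0.95 and 0.91 within each group in turn. *Gng8*, a gamma subunit known from olfactory and vomeronasal neurons, had an r of 0.78 (permutation p 0.00012, adjusted 0.00288) and a rho of 0.78 (permutation p 0.00024, adjusted 0.00504). It had an r of 0.76 without the 2 farthest pups and 0.85, 0.89 and 0.75 within the groups. *Gnai1*, *Gnb1* and *Gnao1* went against the score, with an r of -0.74, -0.73 and -0.68, permutation p-values of 0.00055, 0.00069 and 0.00206 and adjusted values of 0.00924, 0.0105 and 0.0247. Their rho was -0.69, -0.72 and -0.64, with permutation p-values of 0.00187, 0.00123 and 0.00491 and adjusted values of 0.0196, 0.0138 and 0.0458. Without the 2 farthest pups their r was -0.94, -0.87 and -0.83, but within PNO it was only -0.26, -0.38 and -0.45. For *Gng13* and *Rgs10* r was 0.61 and 0.62 (permutation p 0.0068 and 0.00627, adjusted 0.0672 and 0.0658), with a rho of 0.66 and 0.73 (permutation p 0.0036 and 0.00097, adjusted 0.0356 and 0.0134). Without the 2 farthest pups r was 0.73 and 0.84. Within SAL, PNO and IUO the r of *Gng13* was 0.69, 0.32 and -0.34 and that of *Rgs10* 0.87, -0.38 and 0.97, so neither relation, past the adjusted threshold by rho but not by r, held in every group.

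The cortical excitatory score was related to 3 rows by r. *Rgs6*, an R7 protein, had an r of 0.90 (permutation p 1e-05, adjusted 0.00028) and a rho of 0.84 (permutation p 1e-05, adjusted 0.000336), and inside the groups its r was 0.96, 0.96 and 0.97. *Rgs4* had an r of 0.88 (permutation p 1e-05, adjusted 0.00028) and a rho of 0.85 (permutation p 2e-05, adjusted 0.00056), with an r of 0.97, 0.94 and 0.95 within the groups. *Rgs3* went against the score, with an r of -0.68 (permutation p 0.00163, adjusted 0.0211), a rho of -0.73 (permutation p 0.00112, adjusted 0.0134) and an r of -0.68, -0.95 and -0.48 within the groups. Without SAL replicate 1 and PNO replicate 6, the most extreme pups by this score, the r of *Rgs6*, *Rgs4* and *Rgs3* was 0.85, 0.83 and -0.68.

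The olfactory bulb score was related to 0 rows by r after adjustment and to *Rgs4* and *Rgs6* by rho, both negatively. *Rgs4* had a rho of -0.78 (permutation p 0.00037, adjusted 0.00691) and an r of -0.54 (permutation p 0.0234, adjusted 0.131). *Rgs6* had a rho of -0.73 (permutation p 0.00109, adjusted 0.0134) and an r of -0.43 (permutation p 0.0684, adjusted 0.287). Without SAL replicates 6 and 1, the pups of most extreme score, their r was -0.77 and -0.73. Within SAL, PNO and IUO it was -0.58, -0.70 and -0.55 for *Rgs4* and -0.43, -0.66 and -0.56 for *Rgs6*. The r of this score with *Gng4* was 0.79 (permutation p 0.00813, adjusted 0.0759) with a rho of 0.10 (permutation p 0.689, adjusted 0.884), and without those pups r was -0.36, so the value rests on those pups. The marker scores and the members come from the same libraries and share their depth. The part of these cell types in the differences between groups was not tested.

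**Figure D4:**
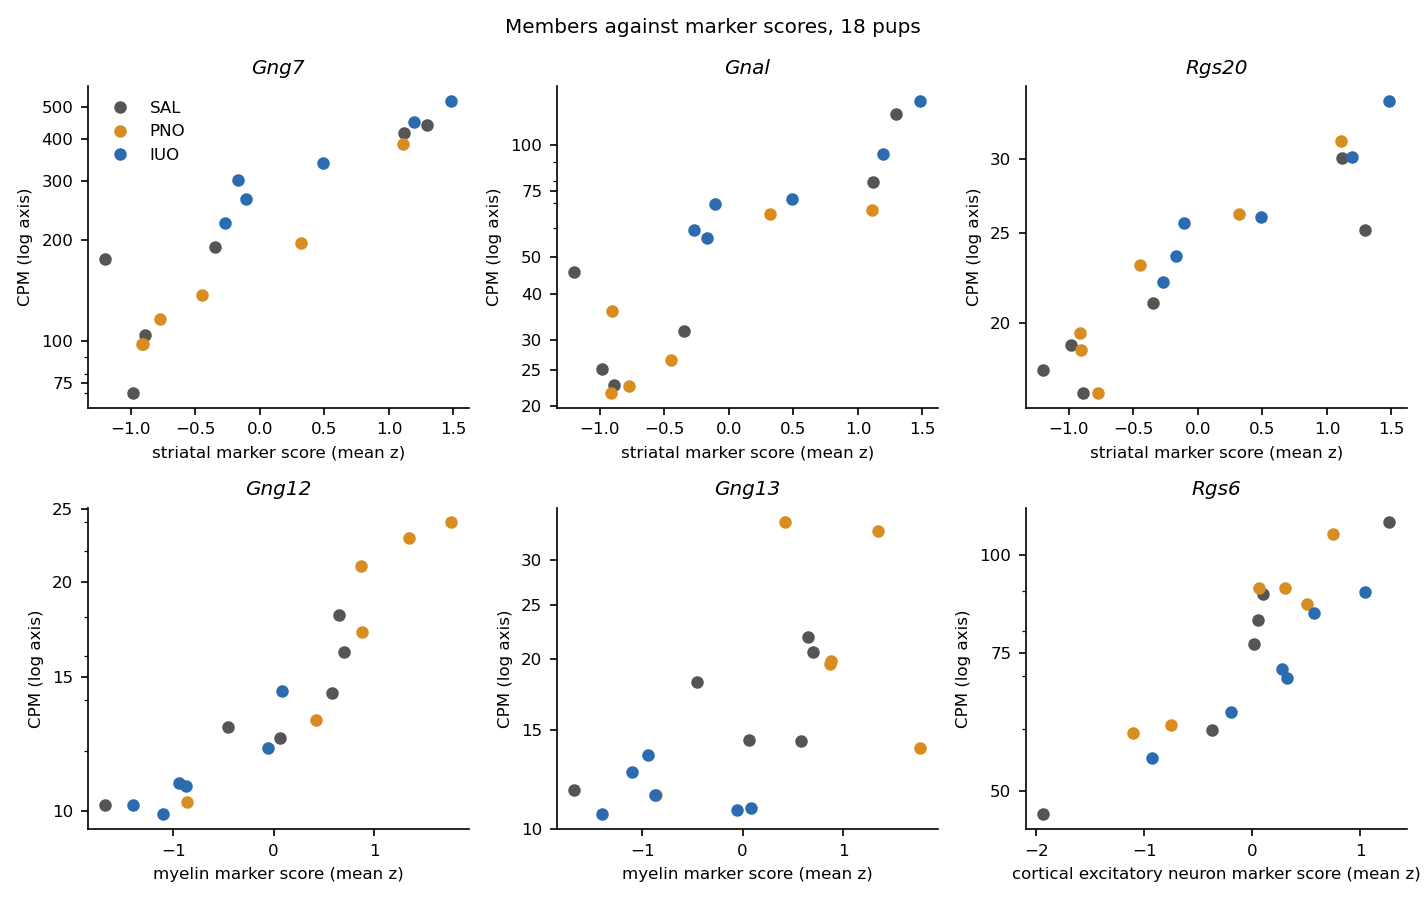
CPM (log axis) of 6 members against a marker score (mean z-score over the list's genes) in 18 pups, coloured by group. *Gng7*, *Gnal* and *Rgs20* climb with the striatal score in each group, *Gng12* climbs with the myelin score, *Gng13* does so loosely, and *Rgs6* climbs with the cortical excitatory score.

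The windows around the annotated starts of *Gng7*, *Gng12*, *Gng13* and *Rgs10* are shown because these 4 members, 3 gamma subunits and 1 regulator, stood out in IUO against PNO, *Gng7* with the largest log2 fold change and the other 3 as those that DESeq2 called at the adjusted threshold. Each runs from 250 bases before to 50 bases after the start of the gene in RefSeq, on build GRCr8, and reads 5′ to 3′ along the gene's strand. The windows are chr7:9365139-9365438 (+) for *Gng7*, chr4:97365711-97366010 (+) for *Gng12*, chr10:15245448-15245747 (+) for *Gng13* and chr1:192418028-192418327 (-) for *Rgs10*. Capitals mark the GC box GGGCGG, read on both strands.
Gng7: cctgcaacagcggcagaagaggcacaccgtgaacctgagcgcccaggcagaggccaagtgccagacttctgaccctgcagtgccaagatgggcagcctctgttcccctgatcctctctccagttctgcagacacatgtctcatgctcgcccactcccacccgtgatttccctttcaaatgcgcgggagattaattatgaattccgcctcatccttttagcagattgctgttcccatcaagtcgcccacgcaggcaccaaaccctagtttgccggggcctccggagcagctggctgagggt
Gng12: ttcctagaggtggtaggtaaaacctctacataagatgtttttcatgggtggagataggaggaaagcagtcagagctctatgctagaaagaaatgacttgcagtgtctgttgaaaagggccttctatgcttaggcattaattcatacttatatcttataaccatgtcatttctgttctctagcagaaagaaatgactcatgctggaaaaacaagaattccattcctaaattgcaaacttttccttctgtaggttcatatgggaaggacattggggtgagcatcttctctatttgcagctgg
Gng13: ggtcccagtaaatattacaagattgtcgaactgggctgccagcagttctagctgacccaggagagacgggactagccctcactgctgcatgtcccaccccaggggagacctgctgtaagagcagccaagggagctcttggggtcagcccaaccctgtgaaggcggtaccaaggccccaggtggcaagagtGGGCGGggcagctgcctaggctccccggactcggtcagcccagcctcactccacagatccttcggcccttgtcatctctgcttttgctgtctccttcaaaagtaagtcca
Rgs10: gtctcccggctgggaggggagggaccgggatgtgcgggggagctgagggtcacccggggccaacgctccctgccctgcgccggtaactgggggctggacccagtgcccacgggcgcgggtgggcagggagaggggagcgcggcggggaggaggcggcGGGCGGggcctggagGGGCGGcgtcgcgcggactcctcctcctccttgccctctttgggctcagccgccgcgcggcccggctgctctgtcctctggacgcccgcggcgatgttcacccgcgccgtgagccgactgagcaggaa
*Rgs10* has 2 such boxes and *Gng13* 1, and these letters were not found in the windows of *Gng7* and *Gng12*. The *Rgs10* window holds 76.3% G and C, that of *Gng12* 39.3%, and those of *Gng13* and *Gng7* 59.3% and 58.0%. Windows were matched for 35 of the 43 member symbols, 37 windows in all, and 22 of the 37 (59.5%) held the GC box, against 33.1% of all 33469 windows. The TATA box TATAAA was in 4 of 37 (10.8%, against 14.2%) and the CCAAT box in 9 of 37 (24.3%, against 37.5%). The median content of G and C was 63.7% in the members and 51.7% in all windows. Some members share a neighbourhood in GRCr8: *Rgs8* lies next to *Rgs16*, *Gna11* next to *Gna15*, and *Gnaq* is 1 protein-coding gene away from *Gna14*. In IUO against PNO the log2 fold changes were 0.23 for *Rgs8* and 0.08 for *Rgs16*, 0.21 for *Gna11* and -0.01 for *Gna15*, and 0.36 for *Gnaq* and -0.55 for *Gna14*. In IUO against SAL they were 0.21 and 0.13, 0.11 and 0.22, and 0.13 and 0.20 in the same order. In PNO against SAL they were -0.01 and 0.05, -0.11 and 0.23, and -0.23 and 0.75.

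Genes that act with the members were taken from 8 lists of 51 symbols, of which 48 had a row and 41 were tested. They include the GIRK potassium channels, phospholipase C beta, adenylyl cyclases, receptor kinases, exchange factors and GoLoco proteins, RGS partners and further subunits. In PNO against SAL 2 of the 41 were called at an unadjusted p under 0.05 (4.88%, against 4.5% of all genes), 1 higher and 1 lower. DESeq2 called 3 there (7.32%, against 5.07%) and limma-voom 2 (4.88%, against 6.69%). *Rgs18*, an R4 protein known from platelets, ran from 0.293 to 0.723 CPM in SAL (median 0.440) and from 0.524 to 1.52 in PNO (median 1.08), at 1.17 ± 0.34 (unadjusted p 0.00282, adjusted p 0.912). *Plcb2*, a phospholipase C beta activated by Gq and beta-gamma, ran from 1.84 to 3.09 CPM in SAL (median 2.81) and from 1.13 to 2.78 in PNO (median 1.97), at -0.45 ± 0.20 (unadjusted p 0.0399, adjusted p 0.912).

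In IUO against SAL 0 of the 41 were called at that level by edgeR (against 6.88% of all genes), 1 by DESeq2 (2.44%, against 7.58%) and 3 by limma-voom (7.32%, against 17.3%). In IUO against PNO edgeR called 3 of the 41 (7.32%, against 15.3% of all genes), and all 3 were lower. There DESeq2 called 3 (7.32%, against 16.4%) and limma-voom 14 (34.1%, against 34.0%). *Rgs18* was back at 0.219 to 1.02 CPM (median 0.390) in IUO, at -1.19 ± 0.34 against PNO (unadjusted p 0.00258, adjusted p 0.127). *Kcnj5*, a GIRK channel subunit gated by beta-gamma, ran from 2.88 to 4.47 CPM in PNO (median 3.34) and from 2.30 to 3.05 in IUO (median 2.84), at -0.36 ± 0.14 (unadjusted p 0.0207, adjusted p 0.245). *Gnb1l*, a protein with beta-like repeats, was at -0.27 ± 0.12 (unadjusted p 0.0412, adjusted p 0.308). The 9 adenylyl cyclases were split 7 higher to 2 lower in IUO against PNO with a median of 0.04, and the 4 GIRK channels 1 to 3 with a median of -0.19. None of the 41 genes passed the adjusted threshold in the 3 comparisons with edgeR, the smallest adjusted p being 0.127. DESeq2 also passed 0, against up to 2.78% of all genes, and limma-voom passed 1 in IUO against PNO (2.44%, against 12.9%).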

How the data were processed

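RNA was taken from the PFC of 18 pups (6 per group) and sequenced by the authors as 75 bp single reads, all libraries pooled on 1 flow cell. For each pup the deposited files give an expected count (an estimated count that need not be whole) and TPM (transcripts per 1e6) for each gene, both computed by the authors. The aligner, quantifier, annotation and build are not given in the sources used here. The labels do not name litters, so p-values measure the spread between these pups.

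Expected counts were rounded to whole numbers, filtered (filterByExpr by group) and scaled by TMM in edgeR 4.0.16 (R 4.3.3). A single quasi-likelihood model over the 3 groups gave two-sided p-values, adjusted by Benjamini-Hochberg over 15703 genes. Log2 CPM used a prior count of 2. The scripts were tested on simulated data. TPM served for levels between genes, CPM for levels between pups. Correlations used 100000 permutations. Members below the filter had an exact permutation test.

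The members and lists were chosen with earlier results of these data known. Full values are given for members with an unadjusted p under 0.05, in that comparison, and for the 2 members of each comparison with the smallest p. Levels are given for the highest member of each subfamily, and pathway genes are named under an unadjusted p of 0.05. Marker lists covered 10 cell types or regions, of which those not named in the text were inhibitory neurons, choroid plexus, endothelial and mural cells, astrocytes and meningeal fibroblasts. At an unadjusted p under 0.05 in IUO against PNO, 1 of 6, 0 of 7, 0 of 7, 2 of 5 and 1 of 4 of their tested genes were lower and 0 higher. Of all genes, 15.3% were called there. Alternatives were DESeq2 1.42.0, limma-voom (limma 3.58.1), other scaling and filters, 2 groups alone, a replicate block, marker scores as covariates, and each pup left out. FPKM columns were not used. Figures were drawn with matplotlib 3.10.9.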

Additional observations from a re-analysis of the deposited data

Results flagged for a closer look

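For 42 rows in 3 groups, 126 sets of 6 pups were checked for a pup far from the others by Dixon's test on log2 CPM, which chance alone is expected to mark in about 1 of 20 sets, or 6.3 of 126. It marked 6. *Gnb3*, a low beta subunit, was at -1.29 in PNO replicate 5 (0.320 CPM), with the nearest PNO pup at 1.45 (2.65 CPM). *Gng11* was at 2.34 in PNO replicate 1 (4.96 CPM, nearest pup 9.37 CPM) and at 3.16 in IUO replicate 3 (8.86 CPM, nearest pup 7.83 CPM), and its counts were fractional in all 18 pups. *Rgs10* was at 5.42 in PNO replicate 1 (42.6 CPM, nearest pup 63.2 CPM). IUO replicate 6 was high for a pair of R4 regulators, with *Rgs3* at 5.23 (37.3 CPM, nearest pup 23.7 CPM) and *Rgs16* at 4.57 (23.7 CPM, nearest pup 11.8 CPM).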

How the results depend on the processing

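Each named member kept its direction in all 28 alternative fits. Over 13 named member and comparison pairs, 354 of the refitted log2 fold changes stayed on the same side of the adjusted threshold and 10 passed it, all in IUO against PNO. limma-voom with quality weights called 2, 13 and 22 members at an unadjusted p under 0.05 for PNO and then IUO set against SAL and for IUO set against PNO, and 6.69%, 17.3% and 34.0% of all genes. In the last it called 8 at an adjusted p under 0.05 (12.9% of all genes), where DESeq2 called 3 (2.78%). The myelin score as a covariate gave 5 at the unadjusted threshold in IUO against PNO (11.9% of members, against 9.36% of all genes). Leaving out each pup gave 1 to 5, 0 to 4 and 5 to 14 members at the unadjusted threshold, where 2.52% to 8.99%, 5.14% to 8.77% and 11.4% to 21.4% of all genes were called. At the adjusted one it gave 0 to 2 in IUO against PNO, where up to 0.601% of all genes passed. The cause was not tested. The median log2 fold change of the members moved by less than the spread between pups in every fit.

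The labels give no pairing between groups beyond replicate numbers. Same-numbered pups correlated over all genes by 0.232 on average between PNO and SAL (4 of 6 pairs over 0.1), by -0.0265 between IUO and SAL (1 of 6) and by 0.0626 between IUO and PNO (3 of 6), and 2, 0 and 2 of the pups correlated best with their own number. With the replicate block the members at an unadjusted p under 0.05 numbered 1, 8 and 14 (2.38%, 19.0% and 33.3%), against 4.62%, 7.44% and 16.5% of all genes, and at an adjusted p 0 in each comparison.

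With 6 pups a group, low members (*Gna14*, *Gnb3*, *Gngt2*) rest on few counts and *Gng7* and *Gnal* on widely spread pups. Marker genes of other cell types differed between pups, and their part in the comparisons was not tested.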
